A study of Homo sapiens with 24 samples.

Results

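The genes described here are the metallothioneins and the zinc-response genes of human leukemia cells given cyclocreatine. They are 8 symbols, MT1E, MT1F, MT1G, MT1X, MT2A, SLC30A1, MTF1 and SLC39A10, taken by name from the 25728 gene symbols in the count files. All 8 were present, and 7 had enough counts to be tested among 14588 genes. MT1G fell below the filter on low counts. RNA came from 3 acute myeloid leukemia lines, UT-7, UCSD-AML1 and TF-1, which the series describes as driven by EVI1. Each line was cultured for 24 h with 3 mM cyclocreatine, an analog of creatine that creatine kinase can phosphorylate, or with vehicle, whose composition the labels do not name. The 6 groups were therefore TF-1 vehicle, TF-1 cyclocreatine, UT-7 vehicle, UT-7 cyclocreatine, UCSD-AML1 vehicle and UCSD-AML1 cyclocreatine, with 4 libraries in each and no genetic change between groups of a line. TF-1 is an erythroleukemia line, UT-7 a megakaryoblastic line, and both depend on growth factors. Each line is 1 established culture, and no label tells whether the replicates were grown as separate cultures, so p-values reflect the spread between the libraries, which may be technical.

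Metallothioneins are small cysteine-rich proteins that bind zinc and copper and buffer their free levels in the cell. MTF-1, the product of MTF1, is a zinc-finger factor that senses free zinc and switches on metallothionein genes and SLC30A1 through short metal response elements in their promoters. SLC30A1 encodes ZnT1, the zinc exporter of the plasma membrane, and SLC39A10 encodes ZIP10, a zinc importer of the plasma membrane whose gene is known to be held down by MTF-1 when zinc is plentiful. Metallothionein genes are also known to respond to glucocorticoids and to oxidative stress.

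The 250 bases before the gene start are shown for the 3 members whose promoter window held a metal response element core, because these genes are the textbook targets of MTF-1. The sequences are those of RefSeq on GRCh38.p14, a later build than the one named for the counts, and 5 of the 8 members had a window there; MT1E, MT1F and MT1G did not. Capitals mark matches to TGCACNC or TGCGCNC on either strand, so that a match on the opposite strand reads GNGTGCA or GNGCGCA.
MT2A: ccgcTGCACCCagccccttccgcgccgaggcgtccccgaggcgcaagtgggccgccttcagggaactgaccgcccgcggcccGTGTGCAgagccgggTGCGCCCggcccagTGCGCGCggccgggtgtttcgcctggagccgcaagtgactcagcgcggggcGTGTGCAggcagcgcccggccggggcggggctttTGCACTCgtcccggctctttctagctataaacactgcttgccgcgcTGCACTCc
MT1X: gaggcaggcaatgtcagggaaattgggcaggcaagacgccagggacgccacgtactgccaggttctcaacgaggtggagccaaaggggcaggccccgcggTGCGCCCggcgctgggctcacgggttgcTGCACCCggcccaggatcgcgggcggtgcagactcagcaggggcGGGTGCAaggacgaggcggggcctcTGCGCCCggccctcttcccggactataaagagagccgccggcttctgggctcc
SLC30A1: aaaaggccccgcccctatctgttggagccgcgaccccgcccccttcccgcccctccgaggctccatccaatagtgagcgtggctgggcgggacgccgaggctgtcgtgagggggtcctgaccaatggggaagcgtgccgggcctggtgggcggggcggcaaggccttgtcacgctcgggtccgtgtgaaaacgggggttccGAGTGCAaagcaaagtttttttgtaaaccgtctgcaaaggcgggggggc
The MT2A window lies at chr16:56608334-56608583 on the plus strand, the MT1X window at chr16:56682220-56682469 on the plus strand, and the SLC30A1 window at chr1:211579162-211579411 on the minus strand. MT2A held 7 matches, MT1X 4 and SLC30A1 1, and no match overlapped another. MTF1 and the pair of SLC39A10 windows held 0. Of 35116 promoter windows of the same length, 9.87% held TGCACNC, 16.8% held TGCGCNC and 24.8% held either. At least as many matches as in MT1X were found in 0.37% of the windows, and at least as many as in MT2A in 0.0313%. A match is a run of letters and not a measured binding site. The bases that follow the SLC30A1 window were found in no GENCODE v29 transcript of the gene, unlike those of MT2A and MT1X. The start used for SLC30A1, and so the place of its match, is less certain.

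Library totals ran from 12794998 to 21200662 counts, and the counts of all 36 replicate pairs differed by more than sampling noise. By chi-square per degree of freedom, pairs ran from 3.01 to 19.3 in TF-1 cyclocreatine and from 1.29 to 4.04 in the other groups. Levels are given as CPM (counts scaled to a common library size) on totals scaled by the trimmed mean of M values (TMM), and a count of 0 allows up to 3 counts, or 0.150 to 0.231 CPM in a library, for counting error only. All 10 hematopoietic markers stood at 1 CPM or more in every group. All 8 erythroid markers did so in TF-1 and UT-7 and 3 of 8 in UCSD-AML1. The summed erythroid level ran from 96.4 to 101.2 CPM with vehicle and 60.5 to 64.6 CPM with cyclocreatine in UCSD-AML1, from 1689.5 to 1778 and 1673 to 2043 CPM in TF-1, and from 2566 to 2676 and 2259 to 2666 CPM in UT-7. Of 6 megakaryocyte markers 3 or 4 reached 1 CPM, with GP1BB at 0 in every group. Their sum was higher with cyclocreatine in TF-1 (vehicle 688 to 723 CPM, treated 990.0 to 1079.9 CPM) and UT-7 (vehicle 899 to 942 CPM, treated 1095 to 1124 CPM) and lower in UCSD-AML1 (vehicle 806 to 861 CPM, treated 743 to 753 CPM), without overlap in each line. Of 10 stromal and epithelial markers 1 to 3 reached 1 CPM (summed level 64.9 to 131.0 CPM), with 68.9 to 74.9 CPM in TF-1 vehicle and 86.9 to 101.7 CPM in TF-1 cyclocreatine, and of 6 lymphoid markers 0 to 3. The part of these marker levels in the treatment results was not tested. The share of counts from ribosomal protein genes was higher with cyclocreatine in every line, without overlap: 5.85% to 6.08% against 6.83% to 7.39% in UT-7, 5.95% to 6.18% against 7.07% to 7.28% in UCSD-AML1, and 6.33% to 6.61% against 8.48% to 10.2% in TF-1. TF-1 cyclocreatine replicate 1 stood apart at 10.2%, while the rest of its group held 8.48% to 8.53%. The TF-1 treatment tests of MT2A, MT1X, SLC30A1, SLC39A10 and MTF1 and the counts over the gene lists are therefore also given without it. The part of the ribosomal share in the results was not tested. In bulk RNA, fewer cells that use a gene and less RNA per cell cannot be told apart.

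Cyclocreatine went with more metallothionein RNA in UT-7 and, to a smaller extent, in UCSD-AML1, and not detectably in TF-1. In UT-7, MT2A, MT1X and MT1F rose by 1.60 to 2.07 fold, while the zinc sensor MTF1, the exporter SLC30A1 and the importer SLC39A10 did not pass the test. In UCSD-AML1 MT2A alone rose, by 1.44 fold. In TF-1 neither of the abundant metallothioneins passed, and SLC30A1 and SLC39A10 fell, the latter by a call that was lost without treated replicate 1. A gene passed where its Benjamini-Hochberg adjusted p over all 14588 genes was under 0.05 in edgeR's quasi-likelihood test, read in both directions.

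**Figure D1:**
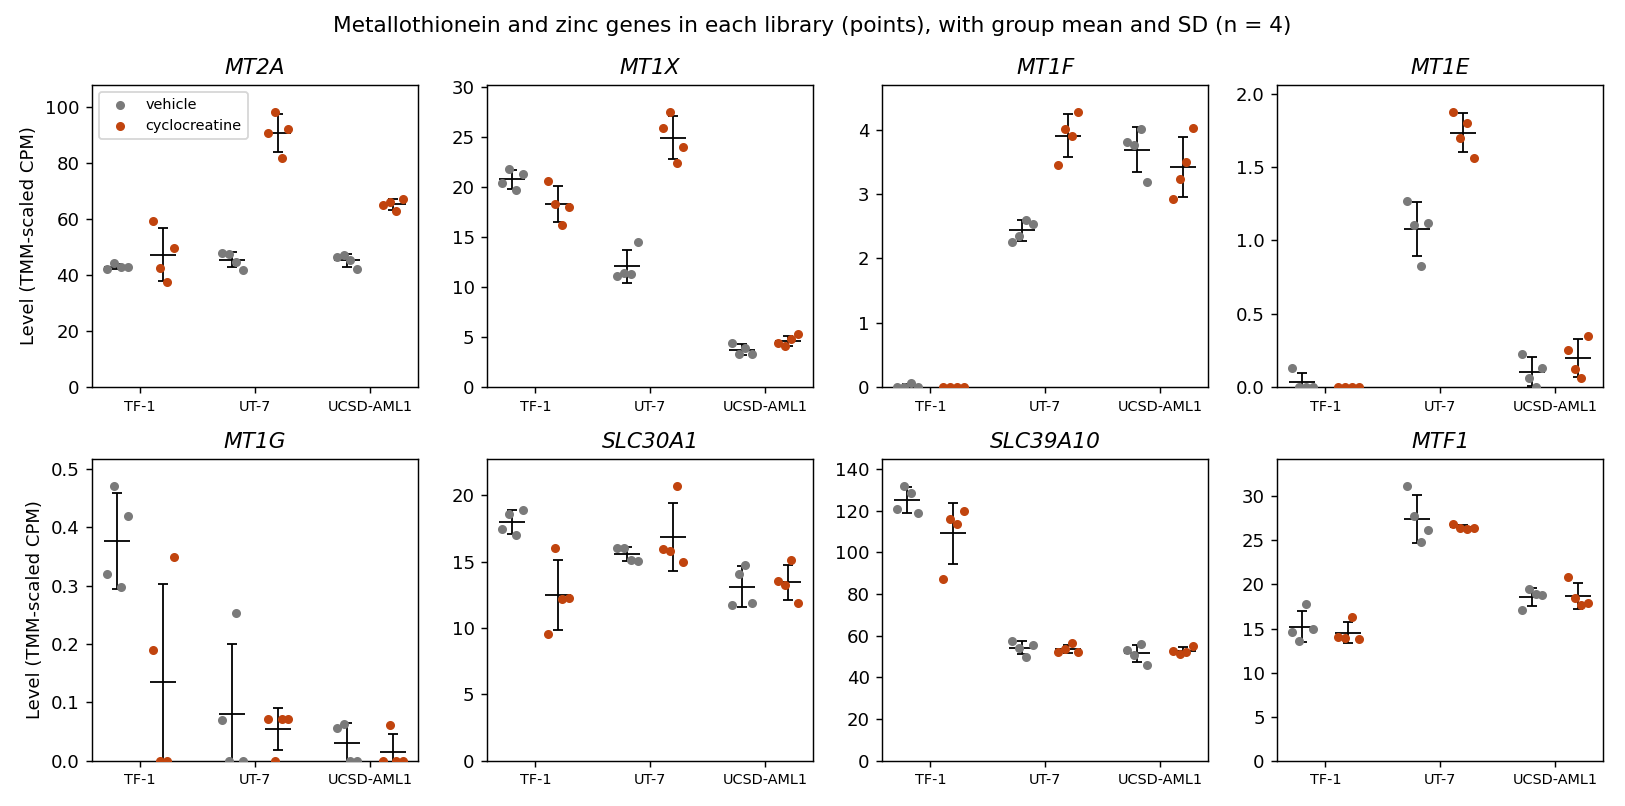
Level (TMM-scaled CPM, linear axis from 0) of each of the 8 genes in every library. Points are libraries, grey for vehicle and orange for cyclocreatine, and the bar is the group mean with its SD (n = 4). The 4 treated UT-7 libraries lie above the 4 vehicle libraries for MT2A, MT1X, MT1F and MT1E, and the 4 treated TF-1 libraries lie below vehicle for SLC30A1.

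MT2A, the most abundant metallothionein in all 6 groups, stood at nearly the same level in the untreated lines. In UT-7 vehicle the 4 libraries held 47.9, 47.5, 44.8 and 42.0 CPM, and in UT-7 cyclocreatine 91.0, 98.2, 82.0 and 92.4 CPM. Every treated library lay above every vehicle library. The means were 45.5 ± 2.74 and 90.9 ± 6.73 CPM (SD, n = 4), a log2 fold change of 0.996 ± 0.08 (SE; 1.99 fold, edgeR adjusted p = 1.15e-11). In UCSD-AML1 the vehicle libraries held 46.5, 47.1, 45.5 and 42.1 CPM and the treated ones 65.0, 66.2, 62.9 and 67.2 CPM, again with no overlap. The log2 fold change there was 0.53 ± 0.08 (1.44 fold, edgeR adjusted p = 4.11e-06). In TF-1 the vehicle libraries held 42.1, 44.4, 43.0 and 42.9 CPM and the treated ones 59.6, 42.5, 37.6 and 49.7 CPM. The treated TF-1 libraries straddled the vehicle range, from below it in replicate 3 to well above it in replicate 1. The log2 fold change in TF-1 was 0.14 ± 0.08 (edgeR adjusted p = 0.153), 0.02 without replicate 1 (adjusted p = 0.816) and 0.23 without replicate 3 (adjusted p = 0.00643), so the call rests on which treated library is left out. With a trend on transcript length removed, the TF-1 value turned to -0.08 (adjusted p = 0.250).

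MT1X, the second metallothionein by level, differed between the untreated lines and followed MT2A in UT-7. Its libraries held 11.1, 11.5, 11.3 and 14.5 CPM in UT-7 vehicle and 25.8, 27.5, 22.4 and 24.0 CPM in UT-7 cyclocreatine. The groups did not overlap, and the log2 fold change was 1.05 ± 0.09 (2.07 fold, edgeR adjusted p = 9.07e-12). In UCSD-AML1 it held 4.44, 3.32, 3.86 and 3.32 CPM with vehicle and 4.38, 4.11, 4.78 and 5.28 CPM with cyclocreatine. These groups overlapped, and the log2 fold change of 0.30 ± 0.14 did not pass (edgeR adjusted p = 0.0935); without vehicle replicate 1, the highest vehicle library, it was 0.40 (adjusted p = 0.0411). In TF-1 it held 20.4, 21.8, 19.7 and 21.3 CPM with vehicle and 20.6, 18.3, 16.2 and 17.97 CPM with cyclocreatine. Treated replicate 1 lay inside the vehicle range and the other 3 below it. The log2 fold change in TF-1 was -0.18 ± 0.09 (edgeR adjusted p = 0.0795) and -0.24 without that replicate (adjusted p = 0.0174). It passed in 4 of the other settings as well: library totals alone (-0.26, adjusted p = 0.0106), a GC trend removed (-0.21, adjusted p = 0.0385), a length trend removed (-0.49, adjusted p = 2.19e-06) and limma-voom (-0.18, adjusted p = 0.0475). MT1X thus leaned downward in TF-1 in the fits run and passed the test in some of them.

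MT1F and MT1E, 2 further copper and zinc binding isoforms of the same gene cluster, were near absent from TF-1. MT1F held 2.26, 2.35, 2.60 and 2.54 CPM in UT-7 vehicle and 3.46, 4.01, 3.89 and 4.27 CPM in UT-7 cyclocreatine, without overlap. Its log2 fold change was 0.68 ± 0.18 (1.60 fold, edgeR adjusted p = 0.00245). In UCSD-AML1 MT1F stood at 3.69 ± 0.349 CPM with vehicle and 3.42 ± 0.468 CPM with cyclocreatine (SD, n = 4), and the log2 fold change of -0.11 ± 0.17 did not pass (edgeR adjusted p = 0.654). The 8 TF-1 libraries held 1 count of MT1F in all. MT1E had 18, 16, 13 and 15 counts in the UT-7 vehicle libraries and 26, 22, 25 and 22 in the treated ones. All treated UT-7 libraries lay above all vehicle libraries for MT1E, but at these counts the log2 fold change of 0.69 ± 0.32 did not pass (edgeR adjusted p = 0.0766); it passed with limma-voom (adjusted p = 0.0474) and with only the UT-7 libraries in the fit (adjusted p = 0.00931). In UCSD-AML1 MT1E had 0 to 4 counts a library with vehicle and 1 to 5 with cyclocreatine, and in TF-1 2 counts over the vehicle group and 0 over the treated group, so no fold is given in either line. MT1G had 5, 7, 5 and 7 counts in TF-1 vehicle, 3, 0, 0 and 7 in TF-1 cyclocreatine, and 0 to 4 in any library of the other lines. MT1G was not tested in the filtered fit. With no filter on low counts, its 24 counts in TF-1 vehicle against 10 in TF-1 cyclocreatine did not pass (edgeR adjusted p = 0.177), and no fold is given at this depth.

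Of the 7 tested members of the 8 genes, the count that passed was 3 higher and 0 lower in UT-7, where 45.9% of all tested genes passed (22.5% higher, 23.3% lower). In UCSD-AML1 it was 1 higher and 0 lower, where 40.5% passed (19.1% higher, 21.3% lower). In TF-1 it was 0 higher and 2 lower, where 56% passed (26.7% higher, 29.3% lower). Without TF-1 cyclocreatine replicate 1 the TF-1 count was again 2, now SLC30A1 and MT1X, both lower. With so large a share of genes called in each line, these counts do not set the 8 genes apart. The median log2 fold change of all tested genes was 0 in UT-7, -0.0046 in UCSD-AML1 and -0.0084 in TF-1. Scaling by library totals alone moved the share of higher genes among those called in TF-1 from 47.7% to 36.5% and the median of all genes to -0.09, and the calls of SLC30A1 and SLC39A10 held.

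**Figure D2:**
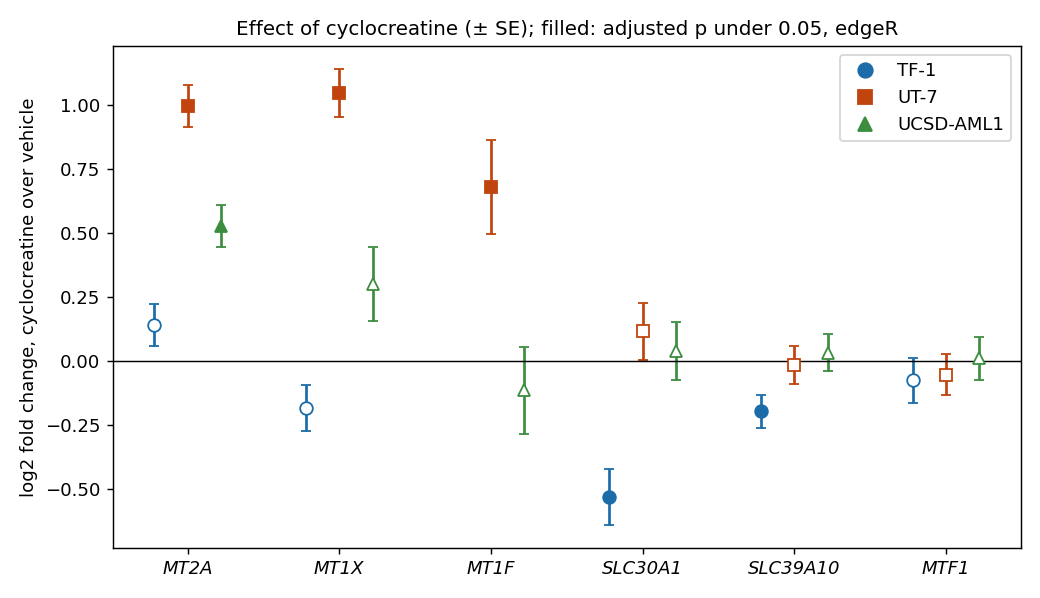
Log2 fold change of cyclocreatine over vehicle (vertical axis, ± SE from edgeR) for the 6 genes with enough counts, in TF-1 (circles), UT-7 (squares) and UCSD-AML1 (triangles). Filled symbols passed at an adjusted p under 0.05. MT1F in TF-1 is left out because its libraries held 1 count. MT2A stands at 0.14, 0.996 and 0.53 in the 3 lines and SLC30A1 at -0.53, 0.12 and 0.04.

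The differences between lines in the response were tested as contrasts of the same model. MT2A responded more in UT-7 than in TF-1 (difference of the log2 fold changes -0.85 ± 0.12 for TF-1 minus UT-7, edgeR adjusted p = 1.82e-06). It also responded more in UT-7 than in UCSD-AML1 (0.47 ± 0.11, edgeR adjusted p = 0.00270) and more in UCSD-AML1 than in TF-1 (-0.39 ± 0.12 for TF-1 minus UCSD-AML1, edgeR adjusted p = 0.0126). The response of MT2A was thus ordered UT-7, UCSD-AML1, TF-1, and each step passed the test. The treated TF-1 libraries themselves ran from 37.6 to 59.6 CPM, and the model shares its estimate of the spread over all groups. MT1X showed the same order, with -1.23 ± 0.13 for TF-1 minus UT-7 (edgeR adjusted p = 3.75e-09), 0.75 ± 0.17 for UT-7 minus UCSD-AML1 (adjusted p = 0.00125) and -0.48 ± 0.17 for TF-1 minus UCSD-AML1 (adjusted p = 0.0280). The last of these was lost without TF-1 cyclocreatine replicate 3 (adjusted p = 0.0519), UCSD-AML1 vehicle replicate 2 (0.0737) or 4 (0.0699), or UCSD-AML1 cyclocreatine replicate 3 (0.0530) or 4 (0.0823), and with limma-voom (0.0520). MT1F differed between UT-7 and UCSD-AML1 (0.79 ± 0.25, edgeR adjusted p = 0.0187). The 3 pairs of lines share their libraries, so the 3 contrasts are not independent of each other. For TF-1 minus UT-7, 0 of the 7 tested members were higher and 3 lower, where 27.5% of all tested genes passed (14.3% higher, 13.2% lower). For TF-1 minus UCSD-AML1 it was also 0 and 3, where 29.1% passed (14.8% and 14.3%), and for UT-7 minus UCSD-AML1 3 and 0, where 23% passed (11.5% in each direction). Without TF-1 cyclocreatine replicate 1 the difference for MT2A was -0.98 for TF-1 minus UT-7 (adjusted p = 2.07e-14) and -0.51 for TF-1 minus UCSD-AML1 (adjusted p = 2.08e-06), and that for MT1X -1.29 (adjusted p = 5.34e-13) and -0.54 (adjusted p = 0.00844).

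SLC30A1, the zinc exporter, had the largest fold change in TF-1 among the members with enough counts there for a fold to be given. Its libraries held 17.4, 18.6, 17.0 and 18.9 CPM with vehicle and 9.56, 16.01, 12.2 and 12.3 CPM with cyclocreatine. No treated library reached the vehicle range, and replicate 1, the library that stood apart, was the lowest. The log2 fold change was -0.53 ± 0.11 (1.44 fold lower, edgeR adjusted p = 8.50e-05) and -0.42 without replicate 1 (adjusted p = 0.000239). The call held in all 8 settings other than leaving out a library (edgeR, limma-voom or DESeq2 adjusted p at most 0.00310). In UT-7 SLC30A1 went from 15.6 ± 0.513 to 16.9 ± 2.58 CPM, and in UCSD-AML1 from 13.1 ± 1.54 to 13.4 ± 1.33 CPM (SD, n = 4). Neither passed, with log2 fold changes of 0.12 ± 0.11 (edgeR adjusted p = 0.417) and 0.04 ± 0.11 (adjusted p = 0.8293). In UT-7 treated replicate 3 lay above the rest, at 20.7 CPM, and the others fell within or close to the vehicle range. The response in TF-1 differed from that in UT-7 by -0.65 ± 0.16 (edgeR adjusted p = 0.00167) and from that in UCSD-AML1 by -0.57 ± 0.16 (adjusted p = 0.00553). Without TF-1 cyclocreatine replicate 1 these were -0.54 (adjusted p = 0.00160) and -0.46 (adjusted p = 0.00687).

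SLC39A10, the zinc importer, was the highest member by counts in TF-1 and in the vehicle groups of the other lines. SLC39A10 held 120.6, 131.7, 128.5 and 118.8 CPM in TF-1 vehicle and 87.3, 115.8, 113.4 and 119.7 CPM in TF-1 cyclocreatine. Treated replicate 1 was far below the rest, and treated replicate 4 lay inside the vehicle range. The log2 fold change was -0.19 ± 0.06 (edgeR adjusted p = 0.0104), but without treated replicate 1 it was -0.10 and no longer passed (adjusted p = 0.0551), and with only the TF-1 libraries in the fit it did not pass either (adjusted p = 0.0622). In UT-7 the level went from 54.3 ± 3.26 to 53.7 ± 2.01 CPM and in UCSD-AML1 from 51.5 ± 4.25 to 52.7 ± 1.64 CPM (SD, n = 4), and neither passed (edgeR adjusted p = 0.912 and 0.776). With a GC trend removed the UCSD-AML1 value was 0.18 and passed (adjusted p = 0.0110). The response in TF-1 was not shown to differ from that in UT-7 (-0.18 ± 0.10, edgeR adjusted p = 0.176) or, with all libraries, from that in UCSD-AML1 (-0.23 ± 0.10, adjusted p = 0.0764). Without TF-1 cyclocreatine replicate 1 these were -0.09 (adjusted p = 0.376) and -0.13 (adjusted p = 0.132). The difference from UCSD-AML1 did pass with library totals alone (-0.30, adjusted p = 0.0264), with the length trend removed (-0.22, adjusted p = 0.0187), with the GC trend removed (-0.32, adjusted p = 0.000893), without TF-1 cyclocreatine replicate 4 (-0.28, adjusted p = 0.0276) and without UCSD-AML1 vehicle replicate 3 (-0.27, adjusted p = 0.0442).

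MTF1, the zinc sensor, passed the test in no line. Its vehicle and treated levels were 15.2 ± 1.79 and 14.5 ± 1.21 CPM in TF-1, 27.5 ± 2.73 and 26.5 ± 0.252 CPM in UT-7, and 18.6 ± 1.02 and 18.7 ± 1.45 CPM in UCSD-AML1 (SD, n = 4). The log2 fold changes were -0.07 ± 0.09, -0.05 ± 0.08 and 0.01 ± 0.08 (edgeR adjusted p = 0.501, 0.640 and 0.950), and the unadjusted p was above 0.05 in each. Without TF-1 cyclocreatine replicate 1 the TF-1 value was -0.06 (adjusted p = 0.612). The 4 treated UT-7 libraries held 26.9, 26.4, 26.3 and 26.4 CPM, a much narrower range than the 24.8 to 31.2 CPM of the vehicle libraries. These values concern MTF1 RNA and not the activity of its protein.

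Before treatment the lines differed in most of these genes. Per kilobase of GENCODE v29 transcript, a rough scale for comparing genes, the vehicle libraries of TF-1 held 54.8 CPM per kb of MT2A, 46.2 of MT1X, 22.995 of SLC39A10, 3.29 of SLC30A1 and 1.91 of MTF1. In UT-7 the order was MT2A (57.9 CPM per kb), MT1X (26.9), SLC39A10 (9.99), MT1F (3.53), MTF1 (3.45), SLC30A1 (2.84) and MT1E (1.48). In UCSD-AML1 it was MT2A (57.7), SLC39A10 (9.49), MT1X (8.30), MT1F (5.35), SLC30A1 (2.40), MTF1 (2.33) and MT1E (0.145). On this scale MT2A led in each line, and MT1X ranged from nearly its equal in TF-1 to a small part of it in UCSD-AML1. Neighbours in these orders were not tested against each other within a line. The lengths come from GENCODE v29, while the counts are for RefSeq symbols. Of the 50-base words of MT1X, 45.1% also occur in other genes, against 4.88% for MT2A, so close ranks such as these 2 in TF-1 are uncertain.

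MT2A passed in no pair of untreated lines, with log2 differences of -0.08 ± 0.08 for TF-1 minus UT-7, -0.07 ± 0.08 for TF-1 minus UCSD-AML1 and 0.01 ± 0.08 for UT-7 minus UCSD-AML1 (edgeR adjusted p = 0.385, 0.415 and 0.946), although with the length trend removed TF-1 stood below UCSD-AML1 by -0.15 (adjusted p = 0.0235). MT1X was highest in TF-1 (20.8 ± 0.947 CPM), lower in UT-7 (12.1 ± 1.64) and lowest in UCSD-AML1 (3.74 ± 0.533; SD, n = 4). Each step passed: 1.72 fold for TF-1 over UT-7 (edgeR adjusted p = 1.57e-09), 3.21 fold for UT-7 over UCSD-AML1 (adjusted p = 1.52e-15) and 5.53 fold for TF-1 over UCSD-AML1 (adjusted p = 6.02e-22). MT1F ran the other way. It was 1.51 fold higher in UCSD-AML1 than in UT-7 (log2 difference for UT-7 minus UCSD-AML1 -0.60 ± 0.18, edgeR adjusted p = 0.00312), and over the vehicle groups its 1 count in TF-1 stood against 141 in UT-7 (ratio 156.0, exact 95% interval 27.55 to 6205) and 233 in UCSD-AML1 (ratio 236.4, interval 42.0 to 9375). MT1E had 62 counts in UT-7 vehicle against 2 in TF-1 vehicle (ratio 34.3, exact 95% interval 9.10 to 289.5) and 7 in UCSD-AML1 vehicle. The intervals cover counting error only. In the treated groups a floor of 3 counts was set for the whole TF-1 group. Against that floor MT1F was 83.5-fold higher in UT-7 and 72.8-fold higher in UCSD-AML1, and MT1E 37.1-fold higher in UT-7. The counts of UT-7 and UCSD-AML1 were taken as observed here, without their own counting error.

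MTF1 was highest in UT-7 (log2 difference -0.85 ± 0.08 for TF-1 minus UT-7, edgeR adjusted p = 6.47e-12; 0.56 ± 0.08 for UT-7 minus UCSD-AML1, adjusted p = 5.71e-08). It was lower in TF-1 than in UCSD-AML1 (-0.28 ± 0.09, edgeR adjusted p = 0.00267), a call that was lost with the length trend removed (-0.09, adjusted p = 0.321). SLC39A10 was 2.30 fold higher in TF-1 than in UT-7 (edgeR adjusted p = 1.68e-17) and 2.42 fold higher than in UCSD-AML1 (adjusted p = 2.13e-18), and the other two lines were not shown to differ (0.07 ± 0.07, adjusted p = 0.353; 0.16 with the length trend removed, adjusted p = 0.00821). SLC30A1 was higher in TF-1 than in UCSD-AML1 (0.46 ± 0.11, edgeR adjusted p = 0.000219). TF-1 against UT-7 gave 0.21 ± 0.11 (adjusted p = 0.0733), and passed with the length trend removed (0.0183), the GC trend removed (0.0425), DESeq2 (0.0499) and only these groups in the fit (0.0298). UT-7 against UCSD-AML1 gave 0.25 ± 0.11 (adjusted p = 0.0399), a call that was lost without UT-7 vehicle replicate 1, 2 or 3 (0.0788, 0.0798 and 0.0516) or UCSD-AML1 vehicle replicate 1 or 4 (0.140 and 0.118). In each pair of untreated lines 5 of the 7 tested members passed. For TF-1 minus UT-7, 2 were higher and 3 lower, where 79.7% of all tested genes passed (41% higher, 38.7% lower). For TF-1 minus UCSD-AML1, 3 were higher and 2 lower, where 84% passed (40.6% and 43.3%). For UT-7 minus UCSD-AML1, 4 were higher and 1 lower, where 81.5% passed (40% and 41.5%). These shares are those of lines that differ in most of their genes.

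Metallothionein counts were also summed, since near-identical copies may exchange reads. Over the 16 metallothionein symbols in the files, the total went from 61.3 ± 1.45 to 121.6 ± 8.69 CPM in UT-7, from 52.9 ± 2.80 to 73.6 ± 2.36 CPM in UCSD-AML1 and from 64.3 ± 1.76 to 65.7 ± 11.4 CPM in TF-1 (SD, n = 4). The treated libraries lay wholly above vehicle in UT-7 (110.2 to 131.4 against 59.8 to 62.5 CPM) and in UCSD-AML1 (71.3 to 76.8 against 48.9 to 55.1 CPM). In TF-1 the treated libraries ran from 53.8 to 80.4 CPM around a vehicle range of 62.9 to 66.7 CPM, with a mean of 60.9 ± 7.14 CPM without replicate 1 (SD, n = 3). In the vehicle groups of TF-1, UT-7 and UCSD-AML1, in turn, MT2A made up 67.0%, 74.3% and 85.6% of the total and MT1X 32.3%, 19.8% and 7.05%. After treatment these shares were 71.7%, 74.8% and 88.8% for MT2A and 28.1%, 20.5% and 6.30% for MT1X. The MT2A share of the treated libraries lay above vehicle in TF-1 (69.9% to 74.1% against 66.4% to 68.2%). It did so in UCSD-AML1 too (87.4% to 89.8% against 84.4% to 86.7%), and the groups overlapped in UT-7. These shares were not tested. The 11 metallothionein symbols outside the 8 genes had 0 to 3 counts in any group, and MT1A, MT1B, MT1H, MT1IP, MT1JP and MT4 had 0 in all 24 libraries.

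**Figure D3:**
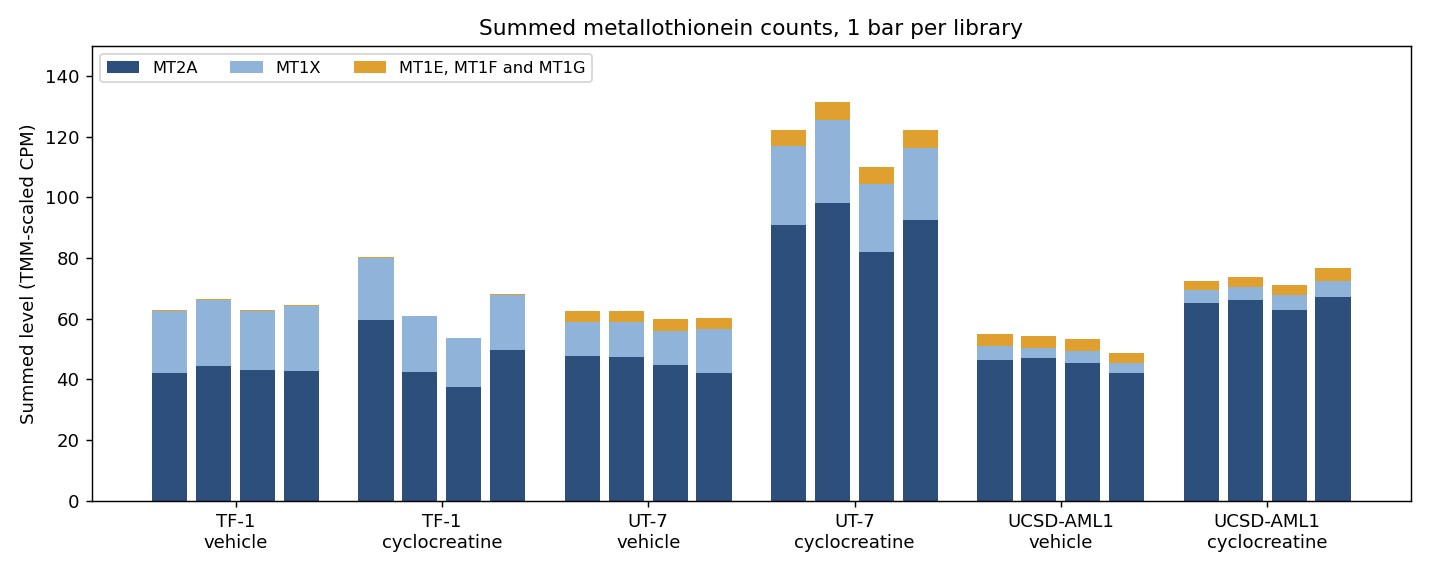
Summed level of the metallothionein genes (TMM-scaled CPM, axis from 0), 1 bar per library, with the parts from MT2A, from MT1X and from MT1E, MT1F and MT1G together; the other 11 symbols, at 0 to 3 counts a group, are not drawn. The treated UT-7 bars run from 110.2 to 131.4 CPM against 59.8 to 62.5 CPM with vehicle, and MT2A is the largest part of every bar.

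Near-identical copies limit the single genes. Of all 50-base words in the GENCODE v29 transcript, 45.1% for MT1X also occur in a transcript of another gene, 16% in one of another metallothionein gene or pseudogene. The share was 20.2% for MT1G, 10.6% for MT1E, 4.88% for MT2A, 3.59% for MT1F, 0.896% for MTF1 and 0 for SLC30A1 and SLC39A10. MT2A shares such words with MT1X and MT1G among others. Read length and strand use are stated in no source used here. The split of reads among MT1E, MT1F, MT1G, MT1X and MT2A, and between overlapping or antisense genes, is therefore uncertain. MTL5, whose symbol reads as a metallothionein but whose protein, tesmin, is a cysteine-rich DNA-binding protein of another family, was kept out of the sum. It rose in all 3 lines, by 0.40 ± 0.06 on the log2 scale in TF-1 (46.7 to 61.8 CPM, edgeR adjusted p = 1.56e-06), 0.27 ± 0.09 in UCSD-AML1 (13.03 to 15.6 CPM; adjusted p = 0.0139) and 0.18 ± 0.07 for UT-7 (42.3 to 47.9 CPM; adjusted p = 0.0266). The UT-7 call was lost without vehicle replicate 3 or 4 or cyclocreatine replicate 1 or 4 (adjusted p 0.0542 to 0.0889) and with library totals alone (0.0807), and the UCSD-AML1 call without vehicle replicate 1 or 2 (0.0590 and 0.0527).

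The other zinc transporters were described beside SLC30A1 and SLC39A10 from lists made by gene family. Of all tested genes, 56% passed in TF-1 (26.7% higher, 29.3% lower), 45.9% in UT-7 (22.5% and 23.3%) and 40.5% in UCSD-AML1 (19.1% and 21.3%). The counts of this and the later lists are to be read beside these shares, and no list was tested as a set. Of 10 further exporters (the SLC30A family and TMEM163), 5 were tested: 1 rose and 1 fell in TF-1, 0 and 1 in UT-7, and 0 and 2 in UCSD-AML1, with median log2 fold changes of -0.01, -0.13 and -0.13. SLC30A9, a mitochondrial zinc exporter, fell in all 3 lines, from 75.5 ± 2.08 to 63.5 ± 4.04 CPM in TF-1, 87.2 ± 3.24 to 76.3 ± 3.57 CPM in UT-7 and 115.8 ± 6.44 to 81.9 ± 4.54 CPM in UCSD-AML1 (SD, n = 4; edgeR adjusted p = 7.32e-05, 0.00204 and 1.26e-10). Its fall in UCSD-AML1 was larger than in TF-1 (difference 0.25 ± 0.07 for TF-1 minus UCSD-AML1, edgeR adjusted p = 0.00681) and than in UT-7 (0.31 ± 0.07 for UT-7 minus UCSD-AML1, adjusted p = 0.00106). Of 13 further importers of the SLC39A family, 10 were tested: 3 rose and 4 fell in TF-1, 2 and 3 in UT-7, and 1 and 5 in UCSD-AML1, with medians of 0.03, -0.01 and -0.11. Without TF-1 cyclocreatine replicate 1 the TF-1 counts were 1 and 2 for the exporters (6 tested) and 5 and 4 for the importers. Of the list genes named here and below, each that passed in TF-1 also passed without that library, except HMOX1.

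SLC39A7, which releases zinc from the endoplasmic reticulum and Golgi, rose by 0.53 ± 0.05 on the log2 scale in UT-7, by 0.35 ± 0.05 in TF-1 and by 0.22 ± 0.05 in UCSD-AML1 (edgeR adjusted p = 4.21e-12, 3.09e-08 and 0.000273). Its rise in UT-7 exceeded that in TF-1 (-0.19 ± 0.07 for TF-1 minus UT-7, edgeR adjusted p = 0.0300) and in UCSD-AML1 (0.32 ± 0.07 for UT-7 minus UCSD-AML1, adjusted p = 0.000431). SLC39A1 and SLC39A4, importers of the plasma membrane, and SLC39A8, an importer of zinc and manganese, fell in all 3 lines. Their log2 fold changes were -0.46, -0.43 and -0.21 for SLC39A1, -0.29, -0.44 and -0.57 for SLC39A4 and -0.16, -0.24 and -0.17 for SLC39A8, in TF-1, UT-7 and UCSD-AML1 in turn. SLC39A11 rose in TF-1 and UT-7 (0.35 ± 0.05 and 0.36 ± 0.06, edgeR adjusted p = 8.79e-07 and 2.11e-06) and stood at -0.05 ± 0.06 in UCSD-AML1 (adjusted p = 0.610), a difference that passed for each (0.40 ± 0.08 for TF-1 minus UCSD-AML1, adjusted p = 0.000260; 0.41 ± 0.08 for UT-7 minus UCSD-AML1, adjusted p = 0.000317). Importers of the same family therefore moved in both directions in each line, and none of the transporters named here changed by as much as MT2A did in UT-7.

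**Figure D4:**
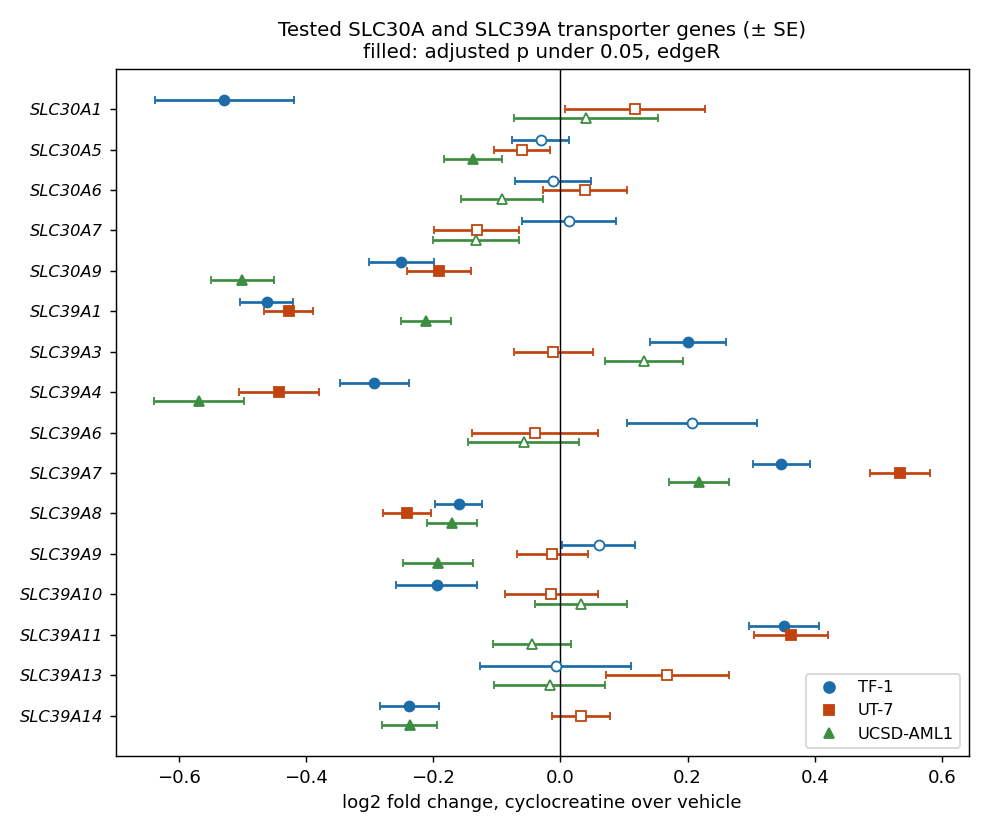
Log2 fold change of cyclocreatine over vehicle (horizontal axis, ± SE from edgeR) for the 16 tested SLC30A and SLC39A genes in TF-1 (circles), UT-7 (squares) and UCSD-AML1 (triangles). Filled symbols passed at an adjusted p under 0.05. SLC39A7 lies right of 0 in each line, SLC30A9, SLC39A1, SLC39A4 and SLC39A8 left of 0 in each, and SLC30A1 left of 0 in TF-1 only, at -0.53.

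Genes that handle copper, the other metal that metallothioneins bind, were counted in the same way. Of all tested genes, 56%, 45.9% and 40.5% passed in TF-1, UT-7 and UCSD-AML1 in turn. Of 14 copper genes fixed, 12 were tested: 4 rose and 2 fell in TF-1, 6 and 3 in UT-7, and 4 and 1 in UCSD-AML1, with median log2 fold changes of 0.08, 0.20 and 0.09. The TF-1 counts were 5 and 2 without TF-1 cyclocreatine replicate 1. COX17, which carries copper to cytochrome oxidase, rose in all 3 lines, from 10.9 to 16.4, 10.5 to 13.9 and 9.66 to 12.2 CPM, in TF-1, UT-7 and UCSD-AML1 in turn. ATOX1, the copper chaperone of the exporting ATPases, rose from 29.2 to 34.4, 15.6 to 19.6 and 19.8 to 22.8 CPM. In UCSD-AML1 both calls were fragile. COX17 was lost without vehicle replicate 4 (edgeR adjusted p = 0.0589) and with the length trend removed (0.0809), and ATOX1 without vehicle replicate 3 or 4 or cyclocreatine replicate 1, 3 or 4 (0.0562 to 0.118) and with the length or GC trend removed (0.450 and 0.201). With the length trend removed ATOX1 turned to -0.06 in TF-1 (adjusted p = 0.464). ATP7B, a copper-exporting ATPase, fell in TF-1 from 143.4 ± 6.77 to 81.6 ± 4.25 CPM (log2 -0.81 ± 0.05, edgeR adjusted p = 9.17e-18) and in UT-7 from 120.1 ± 0.701 to 108.9 ± 3.43 CPM (-0.14 ± 0.05, adjusted p = 0.0101). It stood under 1 CPM in UCSD-AML1.

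Oxidative stress and heat shock genes, which share inducers with the metallothioneins, moved in both directions. Among all tested genes, 56%, 45.9% and 40.5% passed in TF-1, UT-7 and UCSD-AML1 in turn. Of the 14 list genes tested, 4 rose and 9 fell in TF-1, 4 and 5 in UT-7, and 6 and 4 in UCSD-AML1, with medians of -0.19, -0.04 and -0.04. Without TF-1 cyclocreatine replicate 1 the TF-1 counts were 3 and 7. HMOX1, the heme oxygenase induced by heme and heavy metals, rose in the same lines as MT2A. It went from 1.49 ± 0.199 to 4.75 ± 0.812 CPM in UT-7 (log2 1.67 ± 0.20, edgeR adjusted p = 7.26e-09) and from 16.5 ± 2.17 to 42.4 ± 3.13 CPM in UCSD-AML1 (1.36 ± 0.09, adjusted p = 1.37e-15). In TF-1 it fell from 62.1 ± 2.78 to 55.0 ± 6.72 CPM (-0.17 ± 0.07, edgeR adjusted p = 0.0480), a call that held in 7 of 16 other fits and was lost without TF-1 vehicle replicate 2, 3 or 4 or cyclocreatine replicate 1, 2 or 3 (adjusted p 0.0591 to 0.206). The response of HMOX1 differed between TF-1 and UT-7 (-1.84 ± 0.21, edgeR adjusted p = 2.48e-08) and between TF-1 and UCSD-AML1 (-1.53 ± 0.11, adjusted p = 3.35e-13), and was not shown to differ between UT-7 and UCSD-AML1 (0.31 ± 0.22, adjusted p = 0.377). SRXN1, the sulfiredoxin that repairs peroxiredoxins, fell in all 3 lines, with log2 fold changes of -0.89 ± 0.05 in UT-7, -0.68 ± 0.04 in TF-1 and -0.57 ± 0.06 in UCSD-AML1, and so did TXNRD1, a thioredoxin reductase (-0.16, -0.22 and -0.13). SEPW1, a small selenoprotein, rose by 0.61, 0.51 and 0.63, and C11orf31, the selenoprotein H gene, by 0.16, 0.56 and 0.20. The calls of C11orf31 in UT-7 (lost in turn without 3 vehicle and 3 cyclocreatine libraries, adjusted p 0.0614 to 0.180, and in 5 of the other settings) and of TXNRD1 in UCSD-AML1 (0.0509 without vehicle replicate 3) were close to the threshold. HSPA1B, an inducible HSP70 with a near-identical copy, fell in TF-1 from 34.9 ± 0.476 to 19.2 ± 3.30 CPM and in UT-7 from 63.3 ± 2.25 to 44.3 ± 1.79 CPM.

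Genes known to respond to glucocorticoids were counted because metallothioneins can. Among all tested genes, 56%, 45.9% and 40.5% passed in TF-1, UT-7 and UCSD-AML1 in turn. Of the 8 list genes tested, 2 rose and 4 fell in TF-1, 4 and 2 in UT-7, and 3 and 3 in UCSD-AML1, with medians of -0.11, 0.43 and 0.16. The TF-1 counts were also 2 and 4 without TF-1 cyclocreatine replicate 1. The circadian regulator PER1 and the kinase SGK1 rose in all 3 lines, with log2 fold changes of 0.77, 1.14 and 0.22 for PER1 and 1.85, 1.63 and 1.004 for SGK1. FKBP5, a cochaperone of steroid receptors, and the transcription factor KLF9 fell in all 3, with values of -0.18, -0.26 and -0.25 for FKBP5 and -0.63, -0.25 and -0.40 for KLF9. The KLF9 call in UT-7 was lost without vehicle replicate 4 (edgeR adjusted p = 0.0549), and that of PER1 in UCSD-AML1 with the GC trend removed (0.06, adjusted p = 0.472). TSC22D3, which encodes GILZ, fell in TF-1 from 10.96 ± 0.627 to 5.27 ± 0.602 CPM (log2 -1.05 ± 0.10, edgeR adjusted p = 9.56e-12). In UCSD-AML1 the gene rose from 21.7 ± 0.986 to 94.0 ± 4.04 CPM, a log2 fold change of 2.11 ± 0.06 (edgeR adjusted p = 2.38e-25), and the UT-7 value was 0.89 ± 0.21 (1.03 ± 0.248 to 1.93 ± 0.263 CPM, adjusted p = 0.000429). All 3 pairwise differences in its response passed (edgeR adjusted p = 2.91e-08, 4.17e-22 and 9.57e-05). The differences in response from TF-1 given above for SLC30A9, SLC39A7, SLC39A11, HMOX1 and TSC22D3 passed without TF-1 cyclocreatine replicate 1 as well (edgeR adjusted p at most 0.00279).

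The patterns of the 8 genes over the 24 libraries were compared by Pearson correlation of log2 CPM, as a description. The libraries share lines and treatments, so the points are not independent. TF-1 cyclocreatine replicate 1 was the lowest TF-1 library for SLC30A1 and SLC39A10 and the highest for MT2A, and no correlation is given without it. After the mean of its line was subtracted from each library, MT2A and MT1X had r = 0.87, MT1F and MT1X 0.73 and SLC30A1 and SLC39A10 0.70, while MT2A and SLC30A1 had -0.05. Among 10714 other genes whose mean reached 5 CPM, those most like MT2A on this scale were AKAP8L (0.95), PELI1 (0.95), PKM (0.94), AKAP17A (0.94) and QPRT (0.93). Without subtracting the line means they were TMEM8A (0.92), MYL6B (0.87), C9orf69 (0.87), CC2D1B (0.87) and CDK9 (0.86). For SLC30A1 the most similar genes were ZNF543 (0.88), MGAT5 (0.86), RHOU (0.86), UNC13B (0.85) and ZNF264 (0.84) with the line means subtracted, and MAP3K1 (0.86), LRCH3 (0.79), ZNF721 (0.78), RALGAPA2 (0.76) and ARID4B (0.75) without.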

How the data were processed

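Column-extracted RNA of 24 libraries (6 groups of 4) was sequenced on an Illumina HiSeq, per the labels. The authors deposited raw counts, whole numbers for 25728 RefSeq symbols with a file for each library. FastQC, TopHat2, RSEM, GRCh37 and hg19 appear in the submitters' processing notes, and the sources used here give neither versions nor roles.

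The 8 genes and all gene lists were chosen with earlier results of these data known. In edgeR 4.0.16 (R 4.3.3), filterByExpr kept genes by group (minimum count 10, minimum total 15), TMM set the scaling, and a robust quasi-likelihood model with a mean per group took in all libraries (18 residual degrees of freedom; median biological coefficient of variation 0.0578). It gave 9 contrasts: treatment within a line, untreated lines against each other, and the difference in treatment effect between lines. Tests were two-sided, p-values were adjusted by Benjamini-Hochberg over 14588 genes within a contrast, and the threshold was 0.05. A standard error is the log2 fold change divided by the root of its F statistic. Named besides the 8 genes were the other metallothionein symbols, list genes that passed in 1 direction in every line or, per line and direction, up to 2 with the smallest p, and the 5 genes most similar to MT2A and to SLC30A1. Some results of this rule are not reported here.

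Alternatives were library totals alone, no filter on low counts, length or GC trends removed (GENCODE v29 values for 13594 genes, 93.2% of those tested; lowess span 0.3), limma 3.58.1 (voom), DESeq2 1.42.0, only the groups compared, a replicate block, and leaving out each library. Their use on the lists and on MT1G was chosen after seeing the data. The scripts were tested on simulated data. Plots used matplotlib 3.10.9 in Python 3.11.15.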

Additional observations from a re-analysis of the deposited data

Results flagged for a closer look

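The cyclocreatine response of 4 of the genes differed between lines, as tested by the contrast of the 2 log2 fold changes in edgeR. For TF-1 minus UT-7 the difference was -1.23 for MT1X (adjusted p = 3.747e-09), -0.8543 for MT2A (1.818e-06) and -0.6462 for SLC30A1 (0.001671). For TF-1 minus UCSD-AML1 it was -0.5695 for SLC30A1 (0.005534), -0.3851 for MT2A (0.01257) and -0.4841 for MT1X (0.02796). For UT-7 minus UCSD-AML1 it was 0.4692 for MT2A (0.0027), 0.7459 for MT1X (0.001247) and 0.7928 for MT1F (0.0187).

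Within groups of 4 libraries, 3 of the 36 gene and group pairs checked had a library far from the other 3 for its group's range. They were MT1X in UT-7 vehicle replicate 4 (14.54 CPM, the highest), MTF1 in TF-1 cyclocreatine replicate 3 (16.35 CPM, the highest) and MTF1 in UT-7 cyclocreatine replicate 1 (26.86 CPM, the highest of a narrow group). Chance flags about 1 in 20 groups.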

How the results depend on the processing

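Over the settings other than leaving out a library, 357 log2 fold changes of the 8 genes kept their direction and side of the threshold, 16 came to pass, 3 no longer passed and 8 turned sign. Over the fits that left out 1 library these counts were 493, 5, 11 and 19, and the changed calls stand beside their results. No value that passed in the fit to all libraries turned sign among the 8 genes. For 96 called effects of list genes and MTL5, 712 values kept their call, 37 lost it and 1 turned sign, ATOX1 in TF-1 (-0.0553 with the length trend removed), while leaving out a library kept 709 and lost 59. Over the settings other than leaving out a library, the number of the 8 genes that passed ran from 1 to 3 in TF-1, 3 to 4 in UT-7 and 1 to 2 in UCSD-AML1. It was 1 in TF-1 with only the groups compared and 2 in UCSD-AML1 with the GC trend removed. The number ran from 2 to 4 for the response of TF-1 minus UCSD-AML1 and from 5 to 6 for each pair of untreated lines. Leaving out a library, the number ran from 2 to 3 in TF-1 and from 1 to 2 in UCSD-AML1, with 2 in UCSD-AML1 without vehicle replicate 1. For the response of TF-1 minus UCSD-AML1 it ran from 2 to 4. Between untreated lines it ran from 5 to 6 for TF-1 minus UCSD-AML1 and from 4 to 5 for UT-7 minus UCSD-AML1. With the length trend removed, signs turned for MTF1 (0.0191) and MT2A (-0.0810) in TF-1, SLC39A10 in UT-7 (0.00898), MT2A between untreated UT-7 and UCSD-AML1 (-0.0876) and the MTF1 response of TF-1 minus UT-7 (0.103; 0.00183 with only the groups compared). With the GC trend removed they turned for MT2A between untreated TF-1 and UCSD-AML1 (0.00612) and the SLC30A1 response of UT-7 minus UCSD-AML1 (-0.0536). The cause was not tested. Leaving out a library moved MTF1 between -0.131 and 0.0104 in TF-1, -0.100 and 0.0132 in UT-7, and -0.0448 and 0.0397 in UCSD-AML1. SLC39A10 moved between -0.0552 and 0.0137 in UT-7 and -0.0177 and 0.0735 in UCSD-AML1, SLC30A1 between -0.0206 and 0.0995 in UCSD-AML1, and the untreated MT2A difference of UT-7 minus UCSD-AML1 between -0.0281 and 0.0424. The MTF1 response moved between -0.0857 and 0.0627 for TF-1 minus UT-7 and -0.112 and 0.00170 for UT-7 minus UCSD-AML1, where SLC30A1 ran from -0.0329 to 0.137 and SLC39A10 from -0.0882 to 0.00288. None of these passed. Library totals alone moved the share of higher calls among all genes from 52.1% to 41.5% for the response of TF-1 minus UT-7 and from 50.8% to 32.5% for TF-1 minus UCSD-AML1.

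The shared replicate numbers did not pair the libraries: correlations of deviations between same-numbered vehicle and treated libraries ran from -0.187 to 0.0908, and 2 of 12 libraries matched best with their own number. With the replicate block, 2, 3 and 1 of the 8 genes passed in TF-1, UT-7 and UCSD-AML1 and 3 in each difference in response, as without it, and over all genes 7882, 6418 and 5574 passed against 8173, 6689 and 5902.

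Depth limits MT1G, MT1E and, in TF-1, MT1F, whose counts in most libraries are close to the floor of 3.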
